A study of Mus musculus with 4 samples.

Results

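The genes described here encode the nuclear-made parts of the mitochondrial respiratory chain, of the mitochondrial ribosome and of the protein import machinery. Their transcripts were counted by RNA-seq in BV-2 cells, an immortalised line of mouse microglia, the resident macrophages of the brain. The cells received lipopolysaccharide (LPS), a glycolipid of the outer membrane of Gram-negative bacteria, at 10 ng/ml for 4 h, or were kept as controls, with 2 libraries per group. All samples are labelled as the same cell line with no genetic change named, although the growth text of the labels also describes shaking of mixed glial cultures, and the labels name no separate cultures within a group, so the p-values here reflect the spread between these libraries alone, which may be technical. Members were taken by gene symbol alone: names that start with Nduf, Uqcr, Atp5, Mrpl, Mrps, Timm or Tomm, names from Cox4 to Cox8, and Sdha, Sdhb, Sdhc, Sdhd and Cycs. The rule found 200 of the 23783 genes with a symbol, on 20 chromosomes, and 2 of them, Ndufs5-ps and Tomm6os, are non-coding records.

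The respiratory chain passes electrons from NADH and succinate through complexes I to IV to oxygen and pumps protons across the inner membrane, and the ATP synthase uses that gradient to make ATP. A few subunits are made inside the organelle by its own ribosome, whose proteins are all encoded in the nucleus. Nuclear-encoded subunits enter through the TOM complex of the outer membrane, and many then use the TIM complexes of the inner membrane. Macrophages activated by LPS are known for a shift of metabolism towards glycolysis, which is the background to asking whether the transcripts of this machinery respond. The symbol rule also takes proteins of other function, such as Timmdc1, a complex I assembly factor, Ndufa4, now counted among complex IV subunits, and Tomm34, a cytosolic co-chaperone.

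The libraries held 3368693 and 3082538 counts after LPS and 2778686 and 3059196 in the controls, and outside the 5 most abundant records they held 1423391 and 1327707 counts after LPS and 902176 and 1425303 in the controls. As a check of the labels, 6 genes known to respond to LPS had a summed level of 13759 and 14333 normalised counts after LPS, against 156 and 160 in the controls. Of 14 markers of microglia and macrophages, 7 passed the count filter and Itgam was listed at 0, whereas the summed level of markers of astrocytes, oligodendrocytes or neurons did not exceed 1.96 normalised counts in any library. In bulk samples, fewer cells of a type and less RNA per cell cannot be told apart. The control libraries differed more from each other than the LPS libraries did over the tested members, with a chi-square per degree of freedom of 1.22 after LPS and 5.27 in the controls, where 1 stands for counting error alone.

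Of the 200 members, 165 passed the count filter and were tested. The others were not spread evenly. Among 175 members with 1 RefSeq record in the table, 163 passed, with a median of 526 counts over the 4 libraries. Of the 175, 4 were listed at 0 in every library, the complex I subunit Ndufs5 included. Among 25 members with 2 or more records, 2 passed (Mrpl1 and Mrpl15), 10 had 0 counts in every library, and the median of the most abundant record was 1 count. The untested genes with several records include parts that respiring cells are known to need. Cox4i1, the common form of the COX4 subunit of cytochrome oxidase, had 2 and 1 counts after LPS and 0 and 1 in the controls. Ndufs1 and Ndufs8, which carry iron-sulphur clusters of complex I, and Tomm40, the import channel of the outer membrane, were listed at 0 in all libraries. Atp5c1, the central stalk subunit of the ATP synthase, had 4 and 3 counts after LPS and 0 and 5 in the controls. How reads shared by several records of a gene were counted is not given in the sources used here, so the low values of these genes are given as listed and not as a level of expression. The 0 of Ndufs5, which has 1 record, is also given as listed and not as a level of expression.

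**Figure D1:**
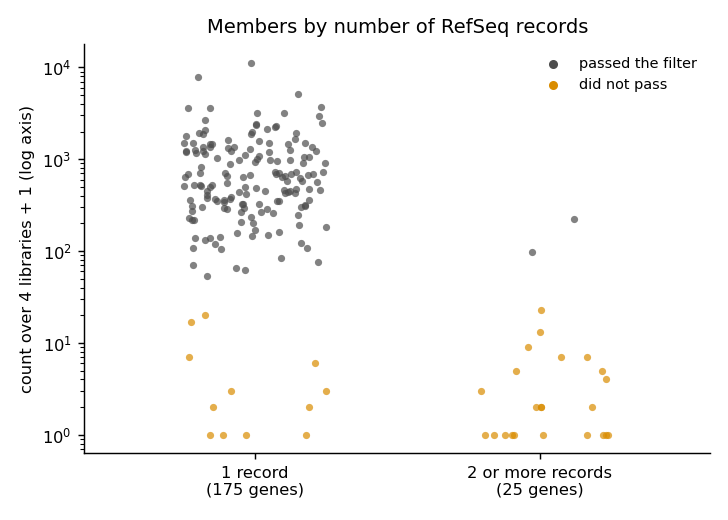
Counts of the 200 members summed over the 4 libraries plus 1 (vertical log axis), for the 175 genes with 1 RefSeq record and the 25 genes with 2 or more, each point 1 gene. Dark points passed the count filter, and 2 of the 25 genes with several records did.

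In the fit of all 4 libraries, 1 gene of this machinery passed the test. Mrpl52, a protein of the large mitochondrial ribosomal subunit, rose, and no other tested member passed the test in either direction. That count depended on the libraries: 9 members (5.45%) passed without control replicate 1, beside 15.2% of all records, and 12 (7.27%) without control replicate 2, beside 18.2%. Without LPS replicate 1 or LPS replicate 2 it was 0 members, beside 3.21% and 2.82% of all records. Those fits leave a single library in a group, which is then assumed to vary like the others. With the replicate block and the GC and length trend removed, 5 members passed, beside 15.8%. The members together took 3.18% and 3.12% of the counts outside the most abundant records after LPS, against 3.32% and 3.19% in the controls. Over all 6981 records tested, 5.53% passed edgeR's quasi-likelihood test (Benjamini-Hochberg adjusted p under 0.05), 3.82% with LPS higher and 1.70% with LPS lower, beside 0.606% of the members with LPS higher and 0 with LPS lower. At an unadjusted p below 0.05 there were 5 members, or 3.03%, beside 15.4% of all records. The median log2 fold change was 0.0032 over the tested members and -0.012 over all records, and 83 members had a positive and 82 a negative value. The interquartile range of the log2 fold changes was 0.25 among members and 0.47 among all records.

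A test that is missed does not show equal levels, so the interval of each fold change was read as well. For 146 of the 165 tested members, or 88.5%, the whole 95% interval lay within a 2-fold change in either direction, beside 60.3% of all records tested. Members are more abundant than most records, with a median of 145 normalised counts beside 66.6, and interval width falls with abundance. Where the mean reached 50 normalised counts, 134 of 142 members (94.4%) and 80.5% of all records had such an interval. The median half-width of the interval was 0.48 on the log2 scale among members. For a typical member, the interval of a smaller estimate therefore covered both directions. The adjusted test asked for more: Timm29, Tomm40l, Mrpl39 and Mrpl21 had intervals in a single direction and did not pass.

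**Figure D2:**
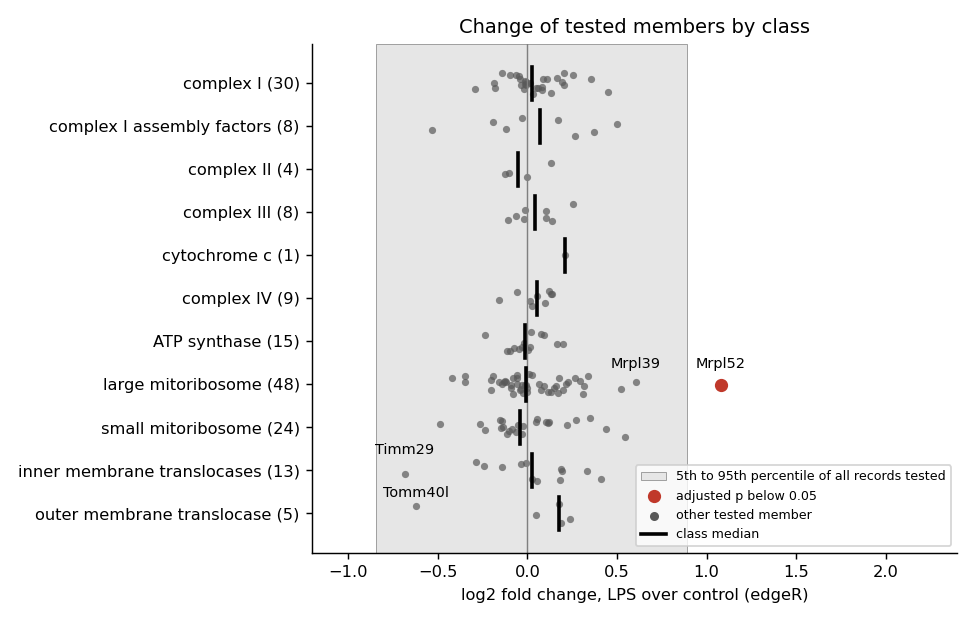
Log2 fold change of LPS over control (horizontal axis, edgeR) for the 165 tested members by class, with the number of tested members in brackets, the class median as a black bar and the range from the 5th to the 95th percentile of all records tested in grey. Mrpl52, at 1.08, is the 1 member with an adjusted p below 0.05, and Timm29 and Tomm40l lie lowest.

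The class medians lay close together. The median log2 fold change was 0.024 for 30 tested complex I subunits, 0.070 for 8 complex I assembly factors, -0.053 for 4 complex II subunits, 0.045 for 8 complex III subunits, 0.054 for 9 complex IV subunits and -0.012 for 15 ATP synthase subunits. It was -0.0053 for 48 proteins of the large and -0.040 for 24 of the small mitochondrial ribosomal subunit, 0.025 for 13 inner membrane and 0.17 for 5 outer membrane translocase genes. These values have no test of their own. The spread of the class median between libraries of a group, as a pooled SD on the log2 scale, was 0.091 for complex I, 0.15 for the large ribosomal subunit and 0.028 for the outer membrane translocase. The median of the outer membrane genes was 0.0082 after removal of the GC and length trend. With totals that leave out the 5 most abundant records in place of TMM scaling, the median of all records was -0.097 and that of the members -0.079, so directions of classes near 0 follow the scaling, and the medians of the ATP synthase, complex III, complex IV, complex I assembly factors and inner membrane translocases are then all below 0.

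Mrpl52 (NM_026851, chromosome 14, 54426909 to 54429750) had 147 and 154 normalised counts after LPS, against 73.1 and 69.2 in the controls. Both LPS libraries lay above both control libraries. Its mean was 150 ± 4.62 after LPS and 71.2 ± 2.78 in the controls (SD, n = 2 each), a log2 fold change of 1.08 (SE 0.219, 95% interval 0.60 to 1.56, edgeR adjusted p 0.0128). No other annotated gene overlaps it, and its neighbour Mmp14, a membrane metalloprotease gene 1848 bases away, was listed at 0 in all libraries. The edgeR adjusted p of Mrpl52 was 0.149 without LPS replicate 1 and 0.238 without LPS replicate 2, with log2 fold changes of 1.12 and 1.06. In all other alternatives tried it passed. DESeq2 gave an adjusted p of 0.0308 and limma-voom 0.0147, and each called Mrpl52 as its 1 member, beside 3.85% of all records in DESeq2 and 5.19% in limma-voom.

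Other genes of the large ribosomal subunit had smaller differences that did not pass. Mrpl39 (NM_017404, chromosome 16, 84718281 to 84735244) had 173 and 175 normalised counts after LPS, against 129 and 101 in the controls, without overlap of the groups. Its log2 fold change was 0.60 with an interval of 0.13 to 1.08 and an edgeR adjusted p of 0.182. The Mir155hg locus, host of the microRNA gene Mir155, ends 3036 bases from Mrpl39. Mir155hg was not analysed here, and the Mir155 record had 1 and 1 counts after LPS and 0 and 0 in the controls. Mrpl21 had 137 and 130 normalised counts after LPS, against 85.8 and 98.7 in the controls, with a log2 fold change of 0.52 (edgeR adjusted p 0.269). It shares 14 bases of its span with Ighmbp2, whose log2 fold change was 0.21. The lowest value of the class was that of Mrpl41, at 103 and 120 normalised counts after LPS and 156 and 143 in the controls (log2 fold change -0.42, edgeR adjusted p 0.408). Mrpl12, a protein that also binds the mitochondrial RNA polymerase and the highest of the class in counts and per kb, had 802 and 785 normalised counts after LPS, inside the span of 992 and 663 in the controls.

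In the small ribosomal subunit, no gene of 24 tested passed. Mrps26, highest in counts before correction for length, had 311 and 298 normalised counts after LPS and 364 and 276 in the controls. The extremes of the class were low in counts. Mrps6 had 14.8 and 16.6 normalised counts after LPS and 14.1 and 8.44 in the controls, and Mrps35 had 35.1 and 57.7 after LPS and 68.9 and 61.6 in the controls. Their 95% intervals ran from -0.42 to 1.51 and from -1.14 to 0.16, so changes of 2-fold lie within both. The 3 Mrps18 paralogues, placed in this class by symbol alone, did not share a sign over all libraries. Mrps18a had a log2 fold change of 0.44, Mrps18b of 0.11 and Mrps18c of -0.24, each with an interval that includes 0. Without control replicate 2 the values were 0.14, 0.26 and 0.33, all positive. Without control replicate 1 they were 0.77, 0.016 and -0.58, and both fits leave a single control library.

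The translocases gave the lowest values of all members. Timm29 (NM_178619, chromosome 9, 21592722 to 21595970), a subunit of the TIM22 complex that inserts carrier proteins, had 102 and 88.0 normalised counts after LPS, against 156 and 149 in the controls. Tomm40l (NM_001037170, chromosome 1, 171217802 to 171222514), a paralogue of the import channel gene Tomm40, had 111 and 117 after LPS, against 180 and 171 in the controls. In both genes the groups did not overlap, as in 17 of the 165 members with LPS lower (10.3%) and 21.9% of all records. With LPS higher it was 31 members (18.8%), beside 21.4% of all records. The log2 fold change was -0.68 for Timm29 (interval -1.16 to -0.21, edgeR adjusted p 0.113) and -0.62 for Tomm40l (interval -1.07 to -0.17, edgeR adjusted p 0.136), so neither passed.

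Both genes did pass with the replicate number as a block, at edgeR adjusted p-values of 0.0271 for Timm29 and 0.0473 for Tomm40l, and with the GC and length trend removed, at 0.0118 and 0.0359. Each of these fits called 3 members, Mrpl52 included, beside 9.87% of all records with the block and 11.2% with the trend removed. Neither gene passed with DESeq2, limma-voom, the other scalings or filters, or with all records of a gene summed. Leaving out 1 library at a time, the log2 fold change ran from -0.78 to -0.58 for Timm29 and from -0.66 to -0.57 for Tomm40l. Tomm40l shares 1044 bases of its span with Nr1i3, listed at 0 in all libraries, and 951 with Apoa2, which had at most 3 counts in a library. Timm29 shares 110 bases with Yipf2, also listed at 0. Nr1i3 has 3 records and Yipf2 has 4, so their values are not read as a level of expression.

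None of the other import genes passed. Tomm20, the receptor that binds presequences at the outer membrane, had 2164 and 1958 normalised counts after LPS, against 1957 and 1698 in the controls, a log2 fold change of 0.17 with an interval of -0.22 to 0.57. Tomm7, a small TOM subunit, had the highest value of its class, at 0.24. Timm23, the channel of the presequence translocase, had 786 and 775 normalised counts after LPS and 677 and 693 in the controls (log2 fold change 0.19, interval -0.19 to 0.56). Of the paralogous TIM23 partners, Timm17a had a log2 fold change of 0.34 and Timm17b of 0.18. Timmdc1, the complex I assembly factor taken in by its symbol, was the highest of the inner membrane class, at 0.41. It had 112 and 98.8 normalised counts after LPS against 87.2 and 72.6 in the controls. Timm8a1, whose human orthologue is mutated in a deafness-dystonia syndrome, had 442 and 441 normalised counts after LPS and 425 and 462 in the controls, whereas its paralogue Timm8a2 was listed at 0.

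**Figure D3:**
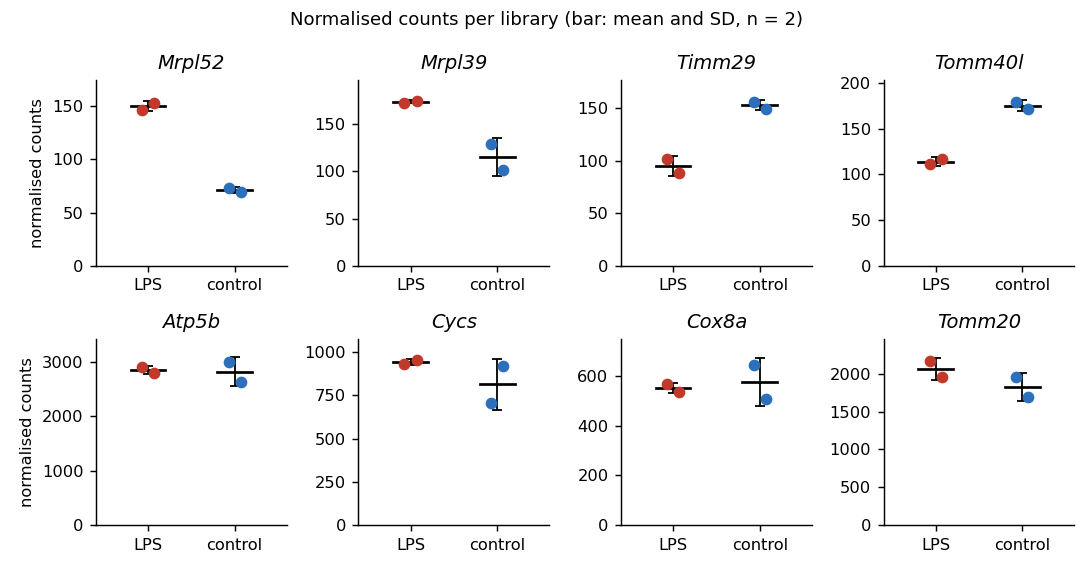
Normalised counts (vertical axes, from 0) of 8 members in each LPS and control library, with the mean and SD of n = 2. The groups are separate for Mrpl52, Mrpl39, Timm29, Tomm40l and Cycs, and they overlap for Atp5b and Cox8a, while Tomm20 has 1958 as its lower LPS value and 1957 as its higher control value.

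With all libraries, no respiratory chain subunit passed. Leaving out 1 library at a time, the log2 fold change ran from 0.0455 to 0.41 for Cycs and from -0.46 to -0.11 for Ndufb11. For Uqcrc1 it ran from -0.14 to 0.39. Each such fit leaves a single library in a group. In complex I, the highest log2 fold change was that of Ndufc2, with 31.4 and 29.3 normalised counts after LPS, against 16.9 and 26.2 in the controls (log2 fold change 0.45, interval -0.30 to 1.20). The lowest was that of Ndufb11, an X-linked membrane arm subunit, with 255 and 217 after LPS, against 324 and 257 in the controls (log2 fold change -0.29, interval -0.74 to 0.16). Among the assembly factors, the extremes were Ndufaf1 at 0.50 and Ndufaf3 at -0.53, and both had under 50 normalised counts in every library. Ndufaf5, the assembly factor with the highest counts before correction for length, had 65.6 and 69.4 normalised counts after LPS, against 54.9 and 64.1 in the controls.

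In complexes II and III, the log2 fold changes ran from -0.12 to 0.13 and from -0.11 to 0.26. Sdhc, a membrane anchor of complex II with its highest count before correction for length, averaged 507 ± 24.2 normalised counts after LPS and 511 ± 129 in the controls (SD, n = 2 each). In complex III, all 8 members passed the count filter and had intervals within a 2-fold change. Uqcrc1, a core protein of that complex, averaged 980 ± 102 normalised counts after LPS and 915 ± 227 in the controls. Uqcrfs1, the Rieske iron-sulphur protein, had the highest value of the complex, with 335 and 329 normalised counts after LPS against 283 and 273 in the controls (log2 fold change 0.26, interval -0.14 to 0.65). Uqcrh, the hinge protein, had the lowest, at -0.11. Cycs, the soluble electron carrier between complexes III and IV, had 930 and 956 normalised counts after LPS, against 707 and 919 in the controls. Its log2 fold change was 0.21 with an interval of -0.20 to 0.62, and it was 0.0021 with the GC and length trend removed.

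Complex IV subunits often come as a form used in most tissues and a second form of muscle or testis. The table separates them where the common form has 1 record. The COX4 forms are not separated, since Cox4i1 has 2 records and few counts. Cox6a1, the common form, averaged 294 normalised counts per kb of transcript after LPS and 270 in the controls, against 4.84 and 7.24 for Cox6a2, the heart and muscle form. Cox7a2, the common form, averaged 445 per kb after LPS and 495 in the controls, against 12.2 and 12.5 for the muscle form Cox7a1. Cox8a averaged 1004 per kb after LPS and 1048 in the controls, while Cox8b had 1 count in all and Cox8c was listed at 0. Cox6b1 had 286 and 242 normalised counts after LPS and 249 and 268 in the controls, and the testis form Cox6b2 was listed at 0, although that gene has 6 records. Cox4i2, a form of lung and of low oxygen, had 2 counts over all libraries. Ndufa4l2, a paralogue of Ndufa4 known to be induced by low oxygen, had 1 and 1 counts after LPS and 0 and 0 in the controls. These counts are at or under a floor of 3 counts, and no direction is read from them. Within the common forms the log2 fold changes ran from -0.16 for Cox7a2 to 0.14 for Cox6a1.

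The ATP synthase gave the most abundant member, Atp5b, the catalytic beta subunit, with 2902 and 2793 normalised counts after LPS inside the span of 3004 and 2636 in the controls. All 15 tested subunits had intervals within a 2-fold change. Their log2 fold changes ran from -0.24 for Atp5a1, the alpha subunit, to 0.20 for Atp5l, subunit g. Atp5a1 had 584 and 581 normalised counts after LPS, against 754 and 623 in the controls, and its edgeR adjusted p was 0.662. Subunit c, the rotor ring, is encoded by 3 genes whose mature protein is the same in mammals. Atp5g2 averaged 732 normalised counts per kb after LPS and 732 in the controls, and Atp5g3 averaged 854 after LPS and 802 in the controls. Atp5g1, with 2 records, had 4 and 0 counts after LPS and 2 and 0 in the controls.

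Levels per kb differed between the classes in both conditions. The median level per kb of transcript was 516 normalised counts after LPS and 477 in the controls for complex III, 445 and 422 for complex IV, and 435 and 451 for the ATP synthase. It was 228 after LPS and 225 in the controls for complex II, and 184 and 180 for complex I. The ribosomal classes lay lower, at 109 after LPS and 104 in the controls for the large subunit and 55.0 and 58.5 for the small one, and the complex I assembly factors lowest, at 25.7 and 22.2. The order of these 8 classes was the same in both conditions, except that the ATP synthase stood above complex IV in the controls and below it after LPS. Within a complex the transcripts were far from equal per kb. In complex I they ran from 19.5 for Ndufs4 to 907 for Ndufb8, a 46.5-fold range, in complex III from 102 for Uqcrb to 1113 for Uqcr10, and in complex II from 116 for Sdha to 306 for Sdhd, a 2.65-fold range. Lengths are those of the cross-referenced GENCODE transcripts, and long annotated ends lower a value per kb.

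**Figure D4:**
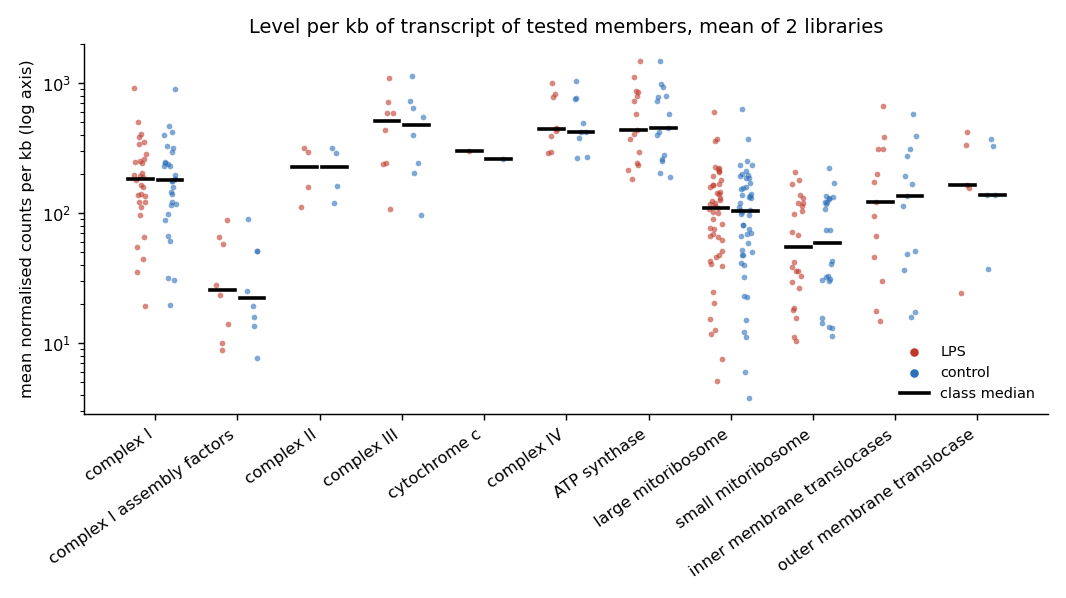
Mean normalised counts per kb of transcript (vertical log axis) of each tested member, by class, with LPS libraries in red left of control libraries in blue and class medians as black bars. The class medians span from 25.7 to 516 after LPS and from 22.2 to 477 in the controls.

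Genes that regulate or serve this machinery gave no call with all libraries. Of 15 regulators of mitochondrial biogenesis, 11 were tested, with a median log2 fold change of -0.027. Ppargc1b, a PGC-1 coactivator gene, had the lowest value, with 14.8 and 9.78 normalised counts after LPS against 22.5 and 23.6 in the controls (log2 fold change -0.90, interval -1.75 to -0.049, edgeR adjusted p 0.292). Gabpa, an ETS factor known to act on respiratory genes, had the highest, at 0.48, and Tfam, which packages and transcribes mitochondrial DNA, had -0.098. Of 24 translation factors and import chaperones, 18 were tested, with a median of 0.022. Hspd1, the matrix chaperonin, had 1406 and 1578 normalised counts after LPS and 1253 and 1703 in the controls. Of 37 other assembly factors and electron carriers, 26 were tested, with a median of 0.032. Cox17, a copper chaperone of complex IV, had 134 and 141 normalised counts after LPS, against 104 and 91.1 in the controls (log2 fold change 0.50, edgeR adjusted p 0.295). None of the 55 tested genes of these lists passed, and 3 (5.45%) had an unadjusted p below 0.05 in edgeR, beside 15.4% of all records. Esrra, an orphan nuclear receptor gene, passed with the GC and length trend removed, a fit that called 11.2% of all records. Genes with several records again rarely counted: none of the 16 in these lists was tested.

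The difference between the control libraries went with base composition among the members. Across the 165 tested members, Spearman's rho between GC content and the log2 ratio of replicate 2 over 1 was -0.091 for the LPS libraries and -0.53 for the control libraries, given as a description since the points share libraries. Over all 6981 records tested, rho was -0.27 for the LPS libraries and -0.66 for the control libraries. Among the members, the ratio between the controls reached 1.92 on the log2 scale, for Ndufaf4, an assembly factor of complex I. Removing the trend lowered the SD of the ratio between controls to 0.36, against 0.43 with the trend in place. Between the LPS libraries the SD was 0.212 after removal and 0.205 before it, and rho with GC content was then 0.21. The log2 fold change of LPS over control went less with GC content, with a rho of -0.093. The part of base composition in the single results was not tested beyond the fits with the trend removed.

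**Figure D5:**
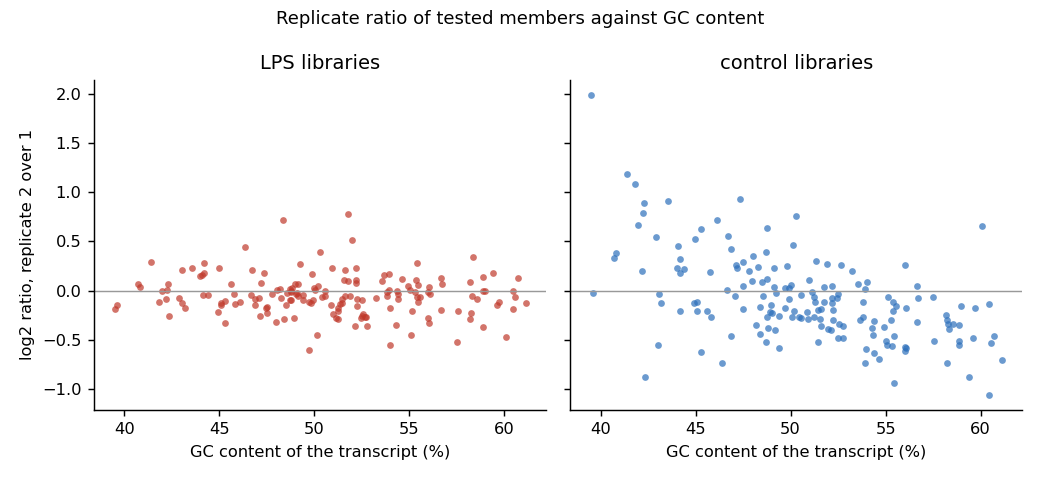
Log2 ratio of replicate 2 over replicate 1 (vertical axis) against GC content of the transcript in percent (horizontal axis) for the 165 tested members, LPS libraries on the left and control libraries on the right. The LPS ratios vary little with GC content (rho -0.091) and the control ratios are lower at high GC content (rho -0.53).

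Promoters of the members were searched for motifs of factors known to act on respiratory genes. RefSeq windows of the GRCm38.p6 assembly, from 250 bases before to 50 after an annotated start, matched 169 of 198 coding members in 182 windows. The NRF1 core GCATGCGC, searched on both strands, was in 12.1% of member windows, beside 5.99% of windows of all tested genes and 2.71% of all windows. A YY1 motif was in 6.59%, beside 2.74% and 0.852%. The ETS motif CCGGAAGT was in 13.2%, beside 10.1% and 3.89%. The consensus of NF-kB, a main factor downstream of LPS, was in 1.65% of member windows, beside 5.13% of windows of all tested genes and 4.51% of all windows. A match is a description of letters and not of binding.

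The bases before the start are printed for Mrpl52, the member that rose, and for Cycs, a textbook target of NRF1 in rat. They are also printed for Mrpl39 and Timm29, which did not pass. Among tested members, Mrpl39 was next highest after Mrpl52 in log2 fold change and Timm29 was lowest. Tomm40l had no promoter window. Capitals mark a match to the NRF1 core or the ETS motif, and stretches without capitals hold no match to the motifs searched.
Mrpl52, chr14:54426659-54426908, plus strand: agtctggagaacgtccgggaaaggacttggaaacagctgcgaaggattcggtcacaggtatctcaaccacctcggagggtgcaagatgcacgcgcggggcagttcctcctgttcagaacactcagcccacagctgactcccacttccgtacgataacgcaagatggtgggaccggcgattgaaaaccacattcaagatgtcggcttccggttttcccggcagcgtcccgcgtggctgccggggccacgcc
Mrpl39, chr16:84735245-84735494, minus strand: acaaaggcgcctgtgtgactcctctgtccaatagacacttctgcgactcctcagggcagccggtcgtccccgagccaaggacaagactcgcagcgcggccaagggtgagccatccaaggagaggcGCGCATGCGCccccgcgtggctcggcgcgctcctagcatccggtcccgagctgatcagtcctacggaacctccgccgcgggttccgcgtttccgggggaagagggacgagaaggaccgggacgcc
Timm29, chr9:21592472-21592721, plus strand: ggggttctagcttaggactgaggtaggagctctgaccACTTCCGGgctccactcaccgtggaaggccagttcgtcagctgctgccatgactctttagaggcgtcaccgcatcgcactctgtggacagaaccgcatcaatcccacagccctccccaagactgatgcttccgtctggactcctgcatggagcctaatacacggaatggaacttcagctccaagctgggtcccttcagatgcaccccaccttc
Cycs, chr6:50566570-50566819, minus strand: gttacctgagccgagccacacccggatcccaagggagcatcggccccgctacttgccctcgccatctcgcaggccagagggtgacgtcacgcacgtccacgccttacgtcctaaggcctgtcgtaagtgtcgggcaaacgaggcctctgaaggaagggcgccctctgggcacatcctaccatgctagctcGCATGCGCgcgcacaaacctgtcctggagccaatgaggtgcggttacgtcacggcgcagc
Mrpl39 holds 2 overlapping core matches and Cycs 1. The window of Mrpl52 holds a match to the ETS motif past its start, beyond the bases printed. None of these windows matched the NF-kB consensus.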

How the data were processed

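RNA-seq libraries of BV-2 cells were compared, 2 with LPS and 2 controls. The values are whole-number counts per RefSeq record in a table deposited by the authors, and were used as deposited. The table is named as normalised, but its columns hold whole numbers with unequal totals, so they were treated as raw counts. If they were scaled before deposit, the totals are not depths and the comparison with counting error does not hold. The submitters' processing notes name the build mm10 and the tools HTSeq 0.6.1, TopHat2 2.0.10, Trimmomatic 0.33, Cufflinks 2.2.1 and CASAVA 1.8.2. For their roles, the strand setting and reads shared by records, details were not given in the sources used here, so reads of overlapping genes may not be told apart. Symbols, positions and promoters came from RefSeq tables of GRCm38.p6, the assembly behind mm10, and lengths and GC content from GENCODE transcripts cross-referenced to each record. A gene was represented by its most abundant record.

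Records were filtered with a minimum count of 10 in edgeR's filterByExpr, scaled by TMM and tested with edgeR 4.0.16 (quasi-likelihood, R 4.3.3), with Benjamini-Hochberg adjustment over 6981 records and a threshold of 0.05. The test was run on simulated data first. Normalised counts are counts at the mean effective library size. DESeq2 1.42.0, limma 3.58.1 (voom), other scalings and filters, the replicate block, a GC and length trend and leaving out each library were alternatives. An exact permutation test of 2 against 2 libraries cannot go below a two-sided p of 0.333. Named genes are, per class, those called, the highest in counts, the extremes of fold change in classes with at least 5 tested members, and fixed paralogue families; others were named after their values were seen. 1 gene that the rule names is not reported here. Members and lists were chosen with earlier results of these data known.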

Additional observations from a re-analysis of the deposited data

How the results depend on the processing

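The replicate numbers are shared by the groups, but nothing in the labels says that a number marks a shared culture, and same-numbered libraries had a correlation of deviations of 0.23, or 0.0996 with the GC trend removed. With the replicate block, 401 records were higher and 288 lower after LPS, and 2 members were lower (Timm29 and Tomm40l). With the block and the GC and length trend removed, 557 records were higher and 543 lower. Of the members 2 were higher and 3 lower, and 2 related genes were called. The class medians were -0.075 (complex I assembly factors), -0.068 (complex III), -0.034 (complex IV), -0.025 (inner membrane) and 0.0069 (outer membrane). With the trend alone removed, 441 records were higher and 340 lower, 2 members lower and 1 related gene (Esrra) was called, and those class medians were -0.074, -0.068, -0.035, -0.033 and 0.0082. With totals without the 5 most abundant records in place of TMM they were -0.016, -0.039, -0.037, -0.058 and 0.095, with -0.094 for the ATP synthase, -0.12 for the small ribosomal subunit and -0.079 over all members. Where the mean had to reach 50 normalised counts, 164 records were higher and 54 lower, and the inner and outer membrane medians were -0.0040 and 0.15. Without a filter 209 records were lower and the outer membrane median was 0.14, and DESeq2 gave 66 lower records. Leaving out 1 library at a time gave 165 to 723 records higher and 39 to 581 lower, 0 to 7 members higher and 0 to 5 lower, 0 to 5 related genes called and 95 to 149 members with an interval within 2-fold, the lone library being assumed to vary like the others. Members called were 6 higher and 3 lower without control replicate 1, 7 and 5 without control replicate 2, and 0 without either LPS replicate, beside 15.2%, 18.2%, 3.21% and 2.82% of all records. Medians then ran from -0.050 to 0.099 over all members, -0.074 to 0.054 for the ATP synthase, -0.032 to 0.15 for complex I, -0.089 to 0.10 for its assembly factors, -0.16 to 0.16 for complex II, -0.11 to 0.070 for complex III, 0.0084 to 0.095 for complex IV, 0.0020 to 0.085 for the inner and 0.071 to 0.16 for the outer membrane genes, -0.068 to 0.043 for the small and -0.12 to 0.13 for the large ribosomal subunit. The cause of these shifts was not tested.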

Other observations

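The gap between genes with 1 and with several records was not restricted to the mitochondrial genes. Among all coding genes with 1 record, 40.7% of 15857 passed the count filter, beside 6.28% of 4461 with 2 or more records.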
